A study of Mus musculus with 32 samples.

Results

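Genes that encode the granule proteins and effector proteins of neutrophils and monocytes were examined in the histone mark profiles of *MLL-AF9* leukemias. The 10 genes were listed by name: *Mpo*, *Elane*, *Prtn3* and *Ctsg*, which encode proteins of the primary granules; *Ltf*, *Camp* and *Ngp*, which encode proteins of the secondary granules; *S100a8* and *S100a9*, which encode the subunits of calprotectin; and *Lyz2*, which encodes lysozyme. They are 10 of the 21911 protein-coding genes of the GENCODE M21 annotation. For each gene, peaks were collected at the promoter, taken as 1 kb upstream to 500 bp downstream of any annotated transcription start site (TSS), and in a window that held the gene and 20 kb on either side.

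H3K4me3, H3K9ac, H3K27ac and H3K4me1 were profiled by ChIP-seq in 2 replicates per genotype, which gives 16 ChIP libraries. The cells were bone marrow of terminal primary leukemias. WT donors were *Kat2a* Flox/Flox and Mx1-Cre -/-, and KO donors were *Kat2a* Flox/Flox and carried Mx1-Cre+/-. Mx1-Cre is switched on by interferon signalling and so acts in many cell types. Donors of both genotypes received pIpC, a synthetic double-stranded RNA that induces interferon. Their bone marrow was taken 4 to 6 weeks later, depleted of lineage-positive cells, transduced with a retrovirus that carries *MLL-AF9*, and transplanted into lethally irradiated recipients. Leukemic bone marrow of 5 WT and 4 KO animals was pooled, so both replicates of 1 genotype come from 1 pool of animals, and a p-value measures only the spread between its chromatin samples. H3K27ac and H3K4me1 were profiled in 500000 cells and H3K9ac and H3K4me3 in 5000000 cells. The peak lists hold no measure of *Kat2a* itself, and a peak at its promoter would not check its excision.

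Neutrophils make their granule proteins in successive waves. Primary, or azurophil, granules are filled at the promyelocyte stage, secondary, or specific, granules at the myelocyte and metamyelocyte stage, and each wave depends on myeloid transcription factors such as PU.1, the C/EBP family, RUNX1 and MYB. H3K4me3 marks active promoters, H3K9ac and H3K27ac are acetylation marks of active promoters and enhancers, and H3K4me1 marks enhancers and the flanks of promoters. *Kat2a* encodes an acetyltransferase whose substrates include H3K9.

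Each list held the authors' MACS2 peaks with a fold enrichment over background at the summit. Read counts are not in the lists, so depth is unknown and no limit of detection can be given for a promoter without a peak. The lists held between 15685 and 23297 peaks for H3K4me3 and between 27657 and 33605 for H3K9ac. Replicate 2 of H3K27ac and H3K4me1 held between 29757 and 78042 peaks. Replicate 1 of these marks stood apart. Its lists held peaks with a median width of 48 or 49 bp, of which 0 to 13 per list had a q-value of at most 0.05, and 0 to 2 of the 10 genes had a promoter peak. Replicate 2 was therefore used for H3K27ac and H3K4me1, without a test. Its KO lists were longer than its WT lists, and covered 35.8 Mb against 19.7 Mb for H3K27ac and 42.2 Mb against 11.53 Mb for H3K4me1. In unsorted bone marrow, fewer cells of a type and less signal per cell cannot be told apart.

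The sequence before the annotated start is shown for all of the genes but *Camp* and *S100a8*. It was taken from the RefSeq promoter table of build GRCm38.p6, which has the chromosome sequences of mm10. Many peak summits given below lie downstream of these stretches. All 10 genes were matched in the table. Each stretch begins 250 bases before the RefSeq start and ends before the most upstream start of a protein-coding transcript. Capitals mark matches, on either strand, to 5 short motifs: TTGCNNAA for C/EBP, GAGGAAG for PU.1, TGTGGT for RUNX, TAACNG for MYB and TATAAA for the TATA box. No matches of different motifs overlapped.
*Mpo*, chr11:87793534-87793580, plus strand: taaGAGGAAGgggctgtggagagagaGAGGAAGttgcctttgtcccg
*Elane*, chr10:79886062-79886246, plus strand: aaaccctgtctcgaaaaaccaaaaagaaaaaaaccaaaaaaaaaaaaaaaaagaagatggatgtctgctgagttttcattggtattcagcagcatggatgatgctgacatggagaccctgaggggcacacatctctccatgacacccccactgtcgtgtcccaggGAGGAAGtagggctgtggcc
*Prtn3*, chr10:79879417-79879613, plus strand: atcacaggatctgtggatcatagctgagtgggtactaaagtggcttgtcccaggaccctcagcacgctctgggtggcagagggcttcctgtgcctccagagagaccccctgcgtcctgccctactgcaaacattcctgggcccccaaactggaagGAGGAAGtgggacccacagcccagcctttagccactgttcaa
*Ctsg*, chr14:56102575-56102824, minus strand: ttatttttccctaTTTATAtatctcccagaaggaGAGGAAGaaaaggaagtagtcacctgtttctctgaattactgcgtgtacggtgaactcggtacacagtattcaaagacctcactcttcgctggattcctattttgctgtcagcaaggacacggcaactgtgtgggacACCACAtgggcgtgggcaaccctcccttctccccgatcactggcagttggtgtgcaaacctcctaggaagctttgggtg
*Ltf*, chr9:111019042-111019270, plus strand: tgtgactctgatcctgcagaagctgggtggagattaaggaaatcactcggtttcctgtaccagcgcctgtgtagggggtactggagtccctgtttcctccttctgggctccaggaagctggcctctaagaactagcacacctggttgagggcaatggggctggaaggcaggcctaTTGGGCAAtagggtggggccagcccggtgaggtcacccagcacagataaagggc
*Ngp*, chr9:110419558-110419746, plus strand: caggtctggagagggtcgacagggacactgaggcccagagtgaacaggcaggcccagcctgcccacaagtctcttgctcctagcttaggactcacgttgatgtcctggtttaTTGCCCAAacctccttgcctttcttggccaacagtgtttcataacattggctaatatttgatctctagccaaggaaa
*S100a9*, chr3:90695722-90695971, minus strand: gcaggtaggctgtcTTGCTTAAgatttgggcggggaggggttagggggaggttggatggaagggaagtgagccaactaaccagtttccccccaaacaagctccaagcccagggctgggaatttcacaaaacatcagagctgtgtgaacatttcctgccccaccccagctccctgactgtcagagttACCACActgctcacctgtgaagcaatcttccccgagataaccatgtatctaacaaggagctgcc
*Lyz2*, chr10:117282322-117282522, minus strand: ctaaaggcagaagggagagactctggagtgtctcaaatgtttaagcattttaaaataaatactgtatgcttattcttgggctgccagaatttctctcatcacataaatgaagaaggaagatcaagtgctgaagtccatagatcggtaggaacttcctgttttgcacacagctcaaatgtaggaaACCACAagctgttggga

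The PU.1 letters were found within 250 bases of the RefSeq start in *Mpo*, *Elane*, *Prtn3*, *Ctsg* and *S100a8*, and in 10.6% of the 32851 RefSeq promoters searched over the same length. The C/EBP letters were found in *Ltf*, *Ngp* and *S100a9*, and in 9.56% of all promoters. All 4 primary granule genes thus held the PU.1 letters, and of the 3 secondary granule genes *Ltf* and *Ngp* held the C/EBP letters. The RUNX letters were found in *Ctsg*, *S100a9* and *Lyz2* (14% of all promoters), the MYB letters in *Mpo* and *Elane* (19.8%) and the TATA box letters in *Ctsg* and *S100a8* (12.4%). The TATA box letters lay 30 to 25 bases before the RefSeq start in *S100a8*. In *Ctsg* they lay 237 to 232 bases before it and on the opposite strand. Not shown here are the MYB matches of *Mpo* and *Elane*, the second C/EBP match of *Ngp* and both matches of *S100a8*. *Camp* held no match to any of the motifs. The promoters held a median of 2.5 CpG dinucleotides in these 250 bases, with *Lyz2* lowest at 1 and *Ctsg* highest at 7, and the median over all promoters was 6.

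Promoter acetylation at H3K9 was listed at most of the genes in each genotype, and it was weak relative to other promoters. A peak in both replicates was listed for 9 of the 10 genes in WT and 7 in KO, beside 51.6% and 50.1% of all protein-coding genes. When the summit had to lie in the promoter, the counts were 7 in WT and 5 in KO. *Mpo* and *Elane* had a peak in both WT replicates and in KO replicate 2 alone. The strongest peak of each gene lay below the median of all promoters with a peak in every H3K9ac list, and the highest rank was that of *Ctsg* at the 49.4th percentile in WT replicate 1. No gene that could be tested passed the test across genotypes.

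Among the primary granule genes, *Mpo* (myeloperoxidase, chr11:87793581-87804413, plus strand, 6 TSS) had H3K9ac fold enrichments of 3.72 and 2.92 in WT replicates 1 and 2, no listed peak in KO replicate 1 and 4.59 in KO replicate 2. The KO libraries therefore held both the lowest and the highest value. These values come from different starts, and in no library was the strongest peak at the first TSS. In WT it lay near the start 8957 bp into the gene, and in KO replicate 2 near the start 1622 bp in. At 8957 bp KO replicate 2 had 3.95, and at 1622 bp WT had 3.42 and 2.82. Within the promoter of the first TSS only WT replicate 1 had an H3K9ac peak, with a fold enrichment of 3.42. *Elane* (neutrophil elastase, chr10:79886247-79888215, plus strand, 1 TSS) had 3.98 and 4.59 in WT, none in KO replicate 1 and 2.44 in KO replicate 2. Both KO libraries thus lay below both WT libraries at *Elane*, and the summits of the listed peaks were 384, 439 and 763 bp downstream of its TSS.

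*Prtn3* (proteinase 3, chr10:79874476-79883174, plus strand, 6 TSS) lies 3.07 kb upstream of *Elane*. Its strongest H3K9ac peak had fold enrichments of 10.6 and 10.02 in WT and 7.68 and 10.1 in KO. This peak lies at the first annotated TSS, that of a processed transcript, within the promoter of the neighbouring gene *Plppr3*. At the first protein-coding start, 5138 bp further on, H3K9ac stood at 6.56 and 5.73 in the WT replicates, was not listed in KO replicate 1 and reached 5.91 in KO replicate 2. *Ctsg* (cathepsin G, chr14:56099881-56102574, minus strand, 2 TSS) had 10.6 and 9.66 in WT and 7.20 and 9.87 in KO. The summits at *Ctsg* lay 634 and 744 bp downstream of the protein-coding start in WT and 669 and 719 bp downstream in KO, close to the start of a processed transcript inside the gene, and the genotypes overlapped.

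The secondary granule genes differed among themselves. *Ltf* (lactoferrin, an iron-binding protein, chr9:111019271-111042767, plus strand, 10 TSS) had an H3K9ac peak in WT replicate 2 (2.33) and KO replicate 1 (2.41) only, and both had a q-value above 0.05. *Camp* (cathelicidin, an antimicrobial peptide precursor, chr9:109847379-109849617, minus strand, 1 TSS) had 2.33 and 6.25 in WT and 3.83 and 9.87 in KO. *Ngp* (neutrophilic granule protein, chr9:110419747-110423012, plus strand, 1 TSS) had 6.79 and 5.92 in WT and 4.54 and 8.08 in KO. The genotypes overlapped at all 3 genes, and the spread within a genotype at *Camp* exceeded the difference between the genotypes.

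For the calprotectin genes, *S100a8* (chr3:90668978-90670035, plus strand, 2 TSS) had H3K9ac fold enrichments of 4.08 and 9.56 in WT and 3.03 and 7.97 in KO. *S100a9* (chr3:90692632-90695721, minus strand, 2 TSS), whose product pairs with that of *S100a8*, had 7.29 and 7.63 in WT and 4.54 and 9.62 in KO. At both genes KO replicate 1 was the lowest library. The summits of the *S100a9* peaks lay 1729 and 1710 bp downstream of the nearest TSS in WT and 67 and 642 bp downstream in KO. *Lyz2* (chr10:117277331-117282321, minus strand, 1 TSS) had 5.77 and 6.96 in WT and 3.78 and 4.20 in KO, so that both KO libraries lay below both WT libraries. The window of *Lyz2* also holds the promoter of *Lyz1*, a near-identical copy, and how reads that fit both were placed is not given in the sources used here.

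**Figure D1:**
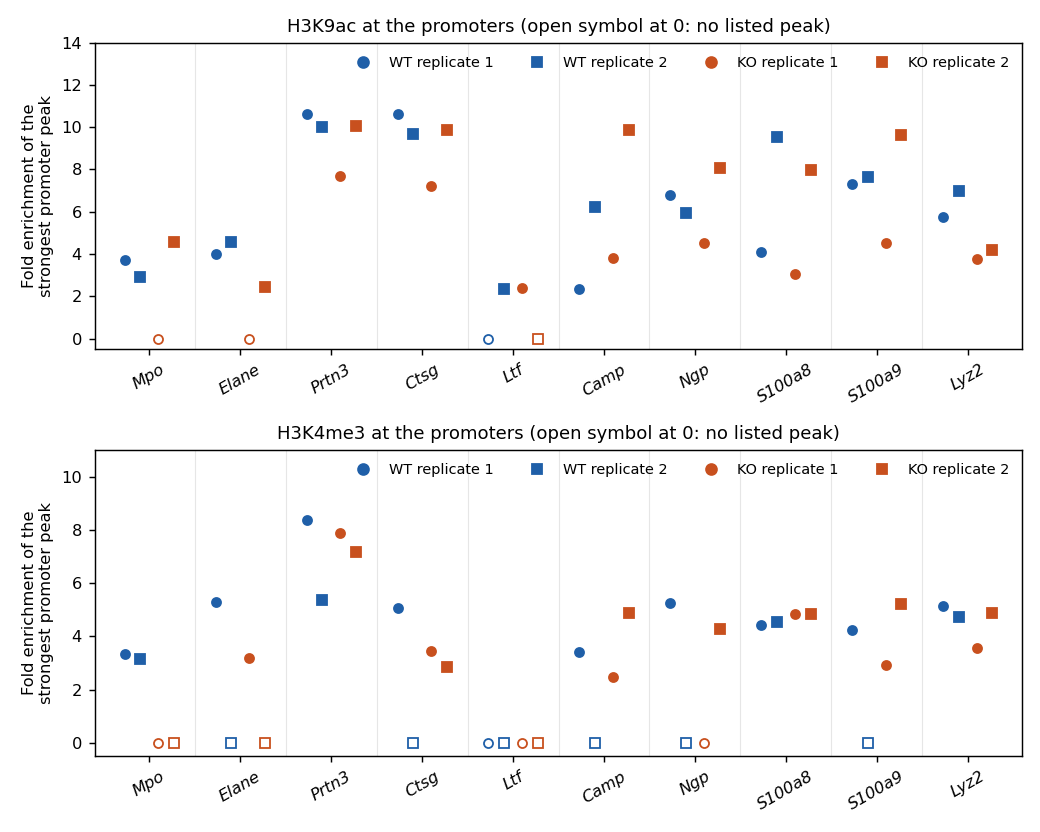
Fold enrichment over background (vertical axis, linear) of the strongest H3K9ac (top) and H3K4me3 (bottom) promoter peak of each gene (horizontal axis) in the 4 libraries of each mark. Circles are replicate 1 and squares replicate 2, WT is blue and KO orange, and an open symbol at 0 is a promoter without a listed peak. For H3K9ac, *Elane* and *Lyz2* are the genes whose KO symbols both lie below both WT symbols.

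Genotypes were compared with limma on log2 fold enrichment of the strongest promoter peak, centred in each library on the median of the genes tested, with Benjamini-Hochberg adjustment. For H3K9ac, 10818 genes with a peak in all 4 libraries were tested, and 0 (0%) passed an adjusted p of 0.05. At an unadjusted p under 0.05 there were 383 genes, 199 higher and 184 lower in KO. Of the 10 genes, 7 could be tested, since *Mpo*, *Elane* and *Ltf* lacked a peak in at least 1 library. The log2 difference of KO minus WT was largest at *Camp*, 0.78 ± 0.42 (SE, limma, n = 2 per genotype, adjusted p = 0.999955), and lowest at *Lyz2*, -0.58 ± 0.38 (SE). The *Camp* difference rested on single libraries: it was 0.074 without WT replicate 1, 1.48 without WT replicate 2, 1.32 without KO replicate 1 and 0.24 without KO replicate 2. It was -0.26 ± 0.42 at *S100a8*, -0.17 ± 0.38 at *Ctsg*, -0.14 ± 0.38 at *Prtn3*, -0.08 ± 0.39 at *S100a9* and 0.02 ± 0.39 at *Ngp*. Each of these 5 differences was smaller than its standard error. At *Prtn3*, the sign turned when only protein-coding transcripts defined the promoter, with a difference of 0.10.

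Ranks within each list allow all 10 genes to be described, with a promoter without a peak placed at 0. A percentile here is the share of genes with a promoter peak in the same list whose strongest peak was weaker. For H3K9ac, both KO percentiles lay below both WT percentiles at *Elane*, *Prtn3*, *Ctsg* and *Lyz2*, and at no gene did both lie above. This is 4 of 10 genes beside 18.6% of the 12375 genes with an H3K9ac promoter peak, and 0 of 10 beside 11.9% in the other direction. *Elane* was at the 11.2th and 11.5th percentile in WT, without a peak in KO replicate 1 and at the 0.35th percentile in KO replicate 2. *Lyz2* was at the 21.2th and 24.9th percentile in WT and at the 8.84th and 8.42th in KO. At *Prtn3* the gap was narrow, 49.3 and 43.6 against 36.9 and 41.5, as it was at *Ctsg*, 49.4 and 41.6 against 33.3 and 40.1. With fold enrichment as deposited in place of the rank, the count was 2, *Elane* and *Lyz2*, beside 19% of all genes, and so at the background. With the TSS of protein-coding transcripts only, *Prtn3* was no longer counted and *Elane*, *Ctsg* and *Lyz2* were, beside 18.3%.

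**Figure D2:**
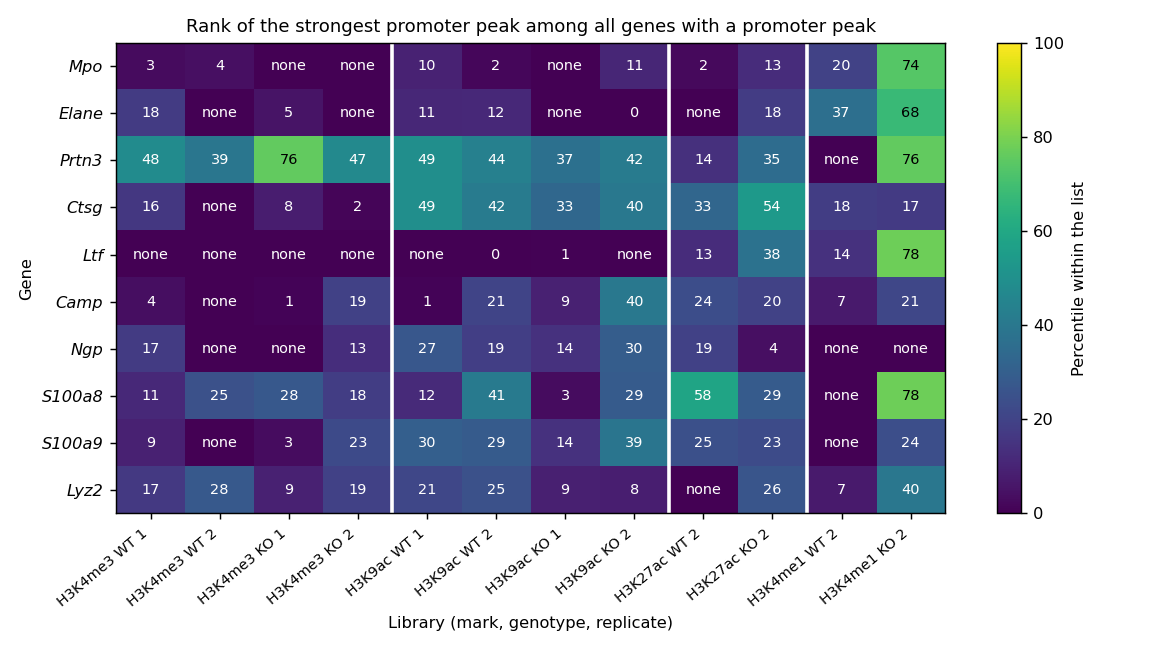
Percentile of the strongest promoter peak of each gene (rows) among all genes with a promoter peak in the same list (columns, by mark, genotype and replicate). Color runs from 0 to 100, numbers are rounded percentiles, and "none" is a promoter without a listed peak. In the 8 H3K4me3 and H3K9ac columns, 1 cell is above the list median, *Prtn3* in KO replicate 1 of H3K4me3.

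H3K4me3 at the promoters was weaker still, and its detection varied between replicates. The lists of WT held a promoter peak of 9 genes in replicate 1 and 4 in replicate 2, and each list of KO held 7. In both replicates, the peak was present at 4 genes in WT and 6 in KO, beside 48.3% and 50% of all protein-coding genes. Without WT replicate 2, which had the fewest peaks of the 4 lists, the WT count was 9. *Prtn3*, *S100a8* and *Lyz2* had a peak in all 4 libraries, and *Ltf* in none.

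*Mpo* had H3K4me3 fold enrichments of 3.34 and 3.16 in WT and no listed promoter peak in either KO replicate, nor any H3K4me3 peak in its window in KO. The peak of WT replicate 2 had a q-value above 0.05, and those of the 2 WT replicates lay at different TSS. *Elane* had 5.29 in WT replicate 1 and 3.19 in KO replicate 1, with none in replicate 2 of either genotype. *Prtn3* had 8.36 and 5.35 in WT and 7.88 and 7.16 in KO, and it ranked highest of the 10 genes in all 4 H3K4me3 lists. *Ctsg* had 5.07 in WT replicate 1, none in WT replicate 2, and 3.46 and 2.86 in KO. At the first protein-coding start of *Prtn3*, H3K4me3 reached 5.91 and 5.07 in WT and was not listed in either KO replicate. The same WT values stood at the later start sites inside the gene, where KO had 4.55 and 7.16. How many single start sites of all genes differ in this way was not counted. The strongest KO peaks of *Prtn3* lay at the processed transcript and at start sites inside the gene. By its strongest promoter peak, *Mpo* was the primary granule gene that separated the genotypes.

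*Camp* had H3K4me3 peaks of 3.42 in WT replicate 1 and of 2.47 and 4.88 in KO. *Ngp* had 5.24 in WT replicate 1 and 4.28 in KO replicate 2. Both lacked a peak in WT replicate 2, as did *S100a9*, which had 4.23 in WT replicate 1 and 2.94 and 5.23 in KO. *S100a8* was the most even of the genes, with 4.43 and 4.52 in WT and 4.83 and 4.84 in KO. *Lyz2* had 5.13 and 4.74 in WT and 3.56 and 4.88 in KO, and its genotypes overlapped.

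The limma test of H3K4me3 covered 10231 genes, of which 0 (0%) passed an adjusted p of 0.05 and 530 had an unadjusted p under 0.05. The 3 genes that could be tested had log2 differences of KO minus WT of 0.22 ± 0.38 (*Prtn3*), 0.17 ± 0.40 (*S100a8*) and -0.19 ± 0.40 (*Lyz2*; SE, limma, n = 2 per genotype, adjusted p between 0.979 and 0.990). The *Prtn3* value came from a peak inside the gene in KO replicate 2 and from a peak at the processed transcript in the other libraries. With the outermost TSS alone, the *Prtn3* difference was 0.038. By rank, *Mpo* was the only gene with both KO percentiles below both WT percentiles, 1 of 9 genes with a peak, beside 15.5% of all genes with an H3K4me3 promoter peak. No gene had both above, beside 15.9%. Other settings placed 1 gene above: *Camp* with 2 kb on either side of the TSS, *Prtn3* with equal numbers of peaks and *S100a8* with fold enrichment as deposited. *Mpo* was no longer counted once peaks with a q-value above 0.05 were left out.

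H3K27ac was listed at 8 of the 10 promoters in WT and at all 10 in KO, beside 44.3% and 49.7% of all protein-coding genes. *Mpo* had fold enrichments of 2.84 in WT and 4.35 in KO, *Prtn3* 3.91 and 6.72, *Ctsg* 5.27 and 8.76, and *Elane* none in WT and 4.91 in KO. Among the secondary granule genes, *Ltf* had 3.86 and 6.95, *Camp* 4.6 and 5.12 and *Ngp* 4.33 and 3.36. The calprotectin genes had 7.04 and 6.09 (*S100a8*) and 4.64 and 5.46 (*S100a9*), and *Lyz2* had none in WT and 5.80 in KO. The KO value was the higher of the pair at 6 of the 8 genes with a peak in both lists, and *Ngp* and *S100a8* were the exceptions.

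The median promoter was itself higher by 0.49 on the log2 scale in the KO list. After centring on this shift, the H3K27ac difference of KO minus WT ran from -0.86 at *Ngp* to 0.36 at *Ltf*. No gene differed by more than 2-fold in either direction, beside 2.51% of the 9620 genes with a peak in both lists that were higher and 3.32% that were lower in KO. Centred differences were above 0 at *Ltf*, *Mpo* (0.13), *Prtn3* (0.29) and *Ctsg* (0.25), and *Elane* and *Lyz2*, without a WT peak, had none. The *Prtn3* value sets a WT peak at the protein-coding start against a KO peak at the processed transcript, and at the protein-coding start the fold enrichments were 3.91 in WT and 5.64 in KO. *Camp* (-0.33), *Ngp*, *S100a8* (-0.70) and *S100a9* (-0.25) had centred differences below 0. With 1 library per genotype these values have no replicate check.

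At *Ltf*, the strongest H3K27ac promoter peaks were not at the first start sites. In KO a peak with a fold enrichment of 5.51 lay there, and in WT none. In both genotypes the strongest, 3.86 in WT and 6.95 in KO, lay at -848 and -915 bp (upstream) from the most 3′ annotated TSS, which is 19534 bp into the gene. *Ltf* thus carried H3K27ac within the gene body in both genotypes while H3K9ac was weak and H3K4me3 was not listed at its promoters.

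H3K4me1 was listed at 6 of the 10 promoters in WT and 9 in KO, beside 18.4% and 37.2% of all protein-coding genes. All 6 WT peaks had a q-value above 0.05. *Mpo* had 3.28 in WT and 4.21 in KO, *Elane* 3.41 and 4.03, *Ctsg* 3.23 and 3.003, *Ltf* 3.11 and 4.45, *Camp* 2.88 and 3.12, and *Lyz2* 2.88 and 3.47. *Prtn3* (4.29), *S100a8* (4.45) and *S100a9* (3.17) had a peak in KO only, and *Ngp* had none in either list. No gene differed by more than 2-fold, beside 0.794% of the 3149 genes with a peak in both lists that were higher and 0.445% that were lower in KO. The KO list placed 5 of the 9 genes with a peak above its median promoter, with *Ltf* and *S100a8* at the 78.1th percentile. A list median divides all genes with a peak evenly, so this count is near the share of all genes. The WT list placed none of its 6 there.

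In replicate 1, which was not compared, *Ctsg* had an H3K27ac peak of 3.21 in WT. *S100a9* had an H3K4me1 peak of 3.06 in WT, and *S100a8* (3.44) and *Lyz2* (2.60) had one in KO. No gene had a peak of these marks in replicate 1 of both genotypes.

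**Figure D3:**
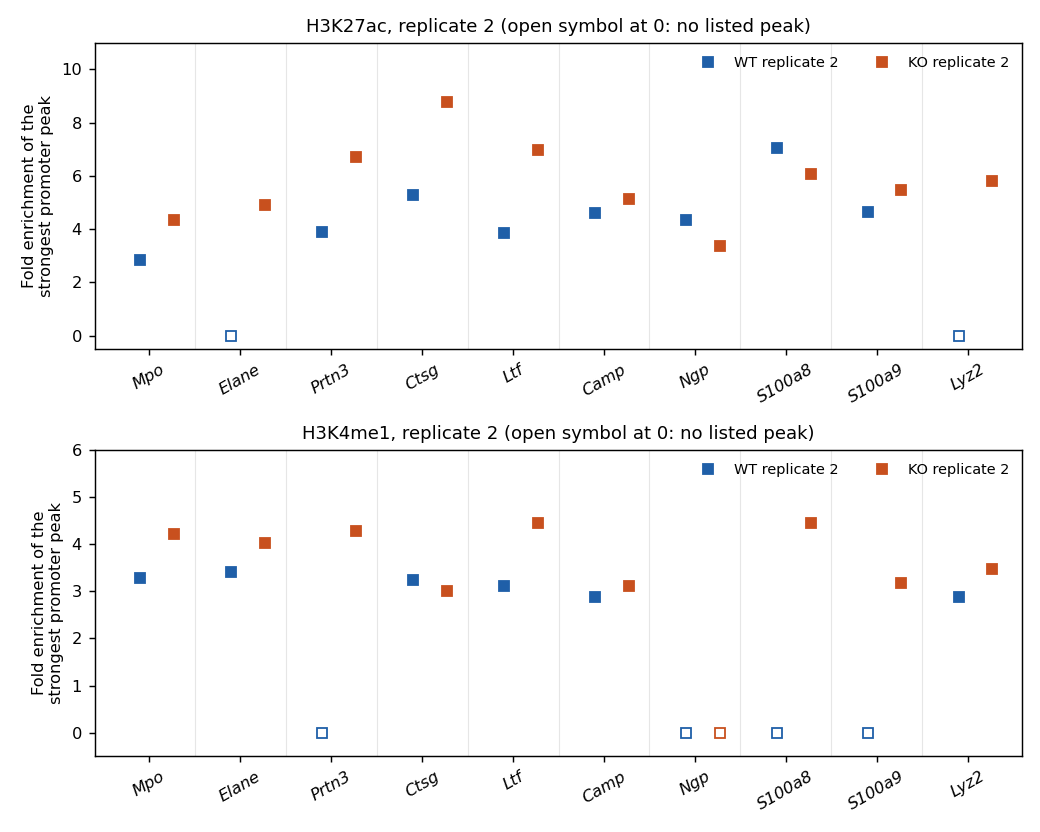
Fold enrichment over background (vertical axis, linear) of the strongest H3K27ac (top) and H3K4me1 (bottom) promoter peak of each gene (horizontal axis) in replicate 2 of WT (blue) and KO (orange). An open symbol at 0 is a promoter without a listed peak. *Elane* and *Lyz2* have an H3K27ac peak in KO only.

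The windows with 20 kb on either side extended the comparison to the surroundings of each gene. The windows of *Prtn3* and *Elane* share 36928 bp and those of *S100a8* and *S100a9* share 17404 bp, so the genes of each pair are not independent. Joined, the windows cover 408004 bp. Other promoters lie in them: those of *Lpo* and *Tspoap1* near *Mpo*, of *Cfd*, *Med16*, *Plppr3* and *Ptbp1* near *Prtn3* and *Elane*, of *Gzme* and *Mcpt8* near *Ctsg*, of *Ccrl2* near *Ltf*, of *Nme6* near *Camp*, of *Klhl18* and *Ptpn23* near *Ngp*, and of *S100a7a* near *S100a8*.

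H3K9ac peaks covered 41852 and 48440 bp of the joined windows in WT and 29416 and 39325 bp in KO, and so did less in both KO libraries. Per Mb covered by the whole list these were 1563 and 1677 bp in WT and 1418 and 1594 bp in KO, and the genotypes overlapped. The ratio of KO to WT was 0.761 ± 0.143 (SD of the 4 pairs of libraries). Of the single windows, *Elane* had 10494 and 9356 bp in WT and 3559 and 6756 bp in KO. *Prtn3* had 14186 and 12857 bp against 6872 and 10027 bp, and *Lyz2* had 2481 and 3716 bp against 1859 and 1658 bp. The count of windows with both KO values below both WT values was 3 of 10, beside 41.9% of all 15771 windows with an H3K9ac peak, and 0 had both above, beside 2.31%. The count is thus below the share of all windows.

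H3K4me3 peaks covered 29777 and 11729 bp of the joined windows in WT and 16384 and 19128 bp in KO. The WT replicates differed more than the genotypes, and the ratio of KO to WT was 0.856 ± 0.54. Without WT replicate 1 it was 1.51. *Mpo* (1534 and 276 bp in WT, 0 and 0 in KO) and *Prtn3* (11250 and 6879 bp against 6725 and 5659 bp) had both KO values below both WT values, 2 of 10 beside 5.81% of all windows with an H3K4me3 peak. None had both above, beside 4.68%.

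H3K27ac and H3K4me1 covered more of the windows in KO. H3K27ac peaks covered 22135 bp of the joined windows in WT and 66303 bp in KO, a ratio of 3. Every one of the 10 windows was covered further in KO, by 1.98 (*Ngp*) to 6.54 times (*Lyz2*), with a median ratio of 3.30 beside 1.66 over all windows covered in WT. *S100a9* rose from 1666 to 9870 bp, *Elane* from 1347 to 7058 bp, *Mpo* from 1245 to 5174 bp and *Ltf* from 4175 to 12746 bp. The count with more than 2-fold in KO was 9 of 10, beside 36.2% of all windows, and 0 were covered over 2-fold less, beside 0.809%. The length of the lists moved with this difference: the KO list covered 35.8 Mb and the WT list 19.7 Mb, and per listed Mb the joined windows held 1122 bp in WT and 1850 bp in KO. With equal numbers of peaks in both lists the count was 7 of 10, beside 22.1%. The part that library quality has in it was not tested, and there is 1 library per genotype.

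For H3K4me1, peaks covered 14371 bp in WT and 64081 bp in KO, a ratio of 4.46. All 10 windows differed by more than 2-fold, from 2.67 at *Ctsg* to 8 at *Ltf*, beside 84.3% of all windows. None was covered over 2-fold less, beside 4.28%. The count for the 10 genes lies close to that of all windows, and the list of KO covered 42.2 Mb against 11.53 Mb in WT. Per listed Mb, 1246 bp lay in the joined windows in WT and 1520 bp in KO.

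**Figure D4:**
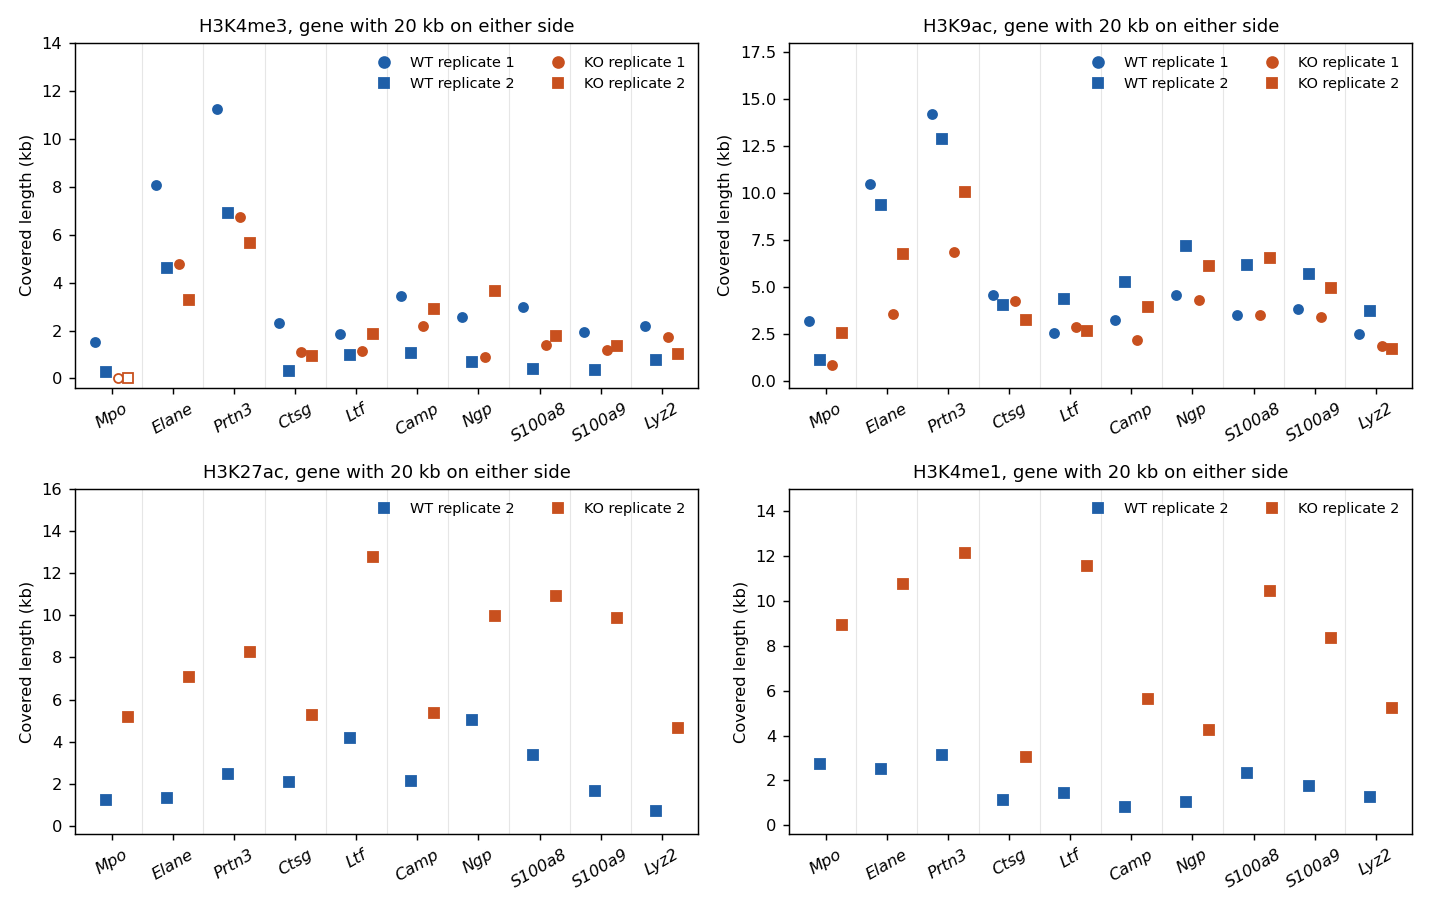
Length covered by peaks (kb, vertical axis) in the window of each gene (horizontal axis) with 20 kb on either side, for the 4 marks. Circles are replicate 1 and squares replicate 2, WT is blue and KO orange, and H3K27ac and H3K4me1 show replicate 2 alone. In the lower panels each KO square lies above the WT square of the same gene, and in the upper panels the genotypes overlap at most genes.

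Peaks outside the promoters of all protein-coding genes were merged over the 12 libraries compared, which gave 117 distal regions in the 10 windows. Of these, 59 were found in 1 library and 15 in at least 6. The regions found in both genotypes numbered 45, those in KO only 59 and those in WT only 13. *S100a8* had 24 regions and *S100a9* 22, including those they share, *Ltf* 22, *Mpo* 15 and *Ctsg* 4. The count of KO-only regions moved with the longer KO lists of H3K27ac and H3K4me1.

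Several distal regions found in most libraries lay close to the genes. Distances are from the region's centre to the outermost TSS, and negative values are upstream. Between *Prtn3* and *Elane*, chr10:79882320-79884852, at -2.66 kb from *Elane*, had a peak in 9 libraries and all 4 marks. Here H3K9ac reached 5.61 in WT replicate 2. Upstream of *Ctsg*, chr14:56103873-56106268, at -2.5 kb, had a peak in 9 libraries, with H3K9ac between 4.22 and 5.04 in all 4. Upstream of *Ngp*, chr9:110414629-110417411, at -3.73 kb, had a peak in 9 libraries, with H3K9ac of 3.01 and 6.96 in WT and 2.93 and 4.07 in KO. These 3 regions carried H3K9ac in all 4 libraries. Of the 3, the *Ctsg* region alone had both KO values above both WT values. How often this holds over all distal regions was not counted. Within *S100a9*, chr3:90692387-90694701, at 2.18 kb, also had a peak in 9 libraries, with H3K9ac listed in KO (5.57 and 8.87) and not in WT. The strong WT peaks described above lay over the same stretch but reached the promoter and were counted there.

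At the calprotectin genes, a region between *S100a8* and *S100a9*, chr3:90680322-90683519, at 12.9 kb from *S100a8*, had a peak in 8 libraries and none of H3K4me3. Its H3K9ac values stood at 3.02 and 4.39 (WT) and at 2.41 and 4.76 (KO), its H3K27ac values 3.71 in WT and 3.52 in KO, and its H3K4me1 values 4.43 and 3.73. Another region, chr3:90658479-90660740, at -9.37 kb from *S100a8*, had a peak in 7 libraries. Upstream of *Lyz2*, chr10:117298023-117299563, at -16.5 kb, had a peak in 7 libraries, again with no H3K4me3. Both regions had H3K27ac and H3K4me1 peaks in both genotypes.

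**Figure D5:**
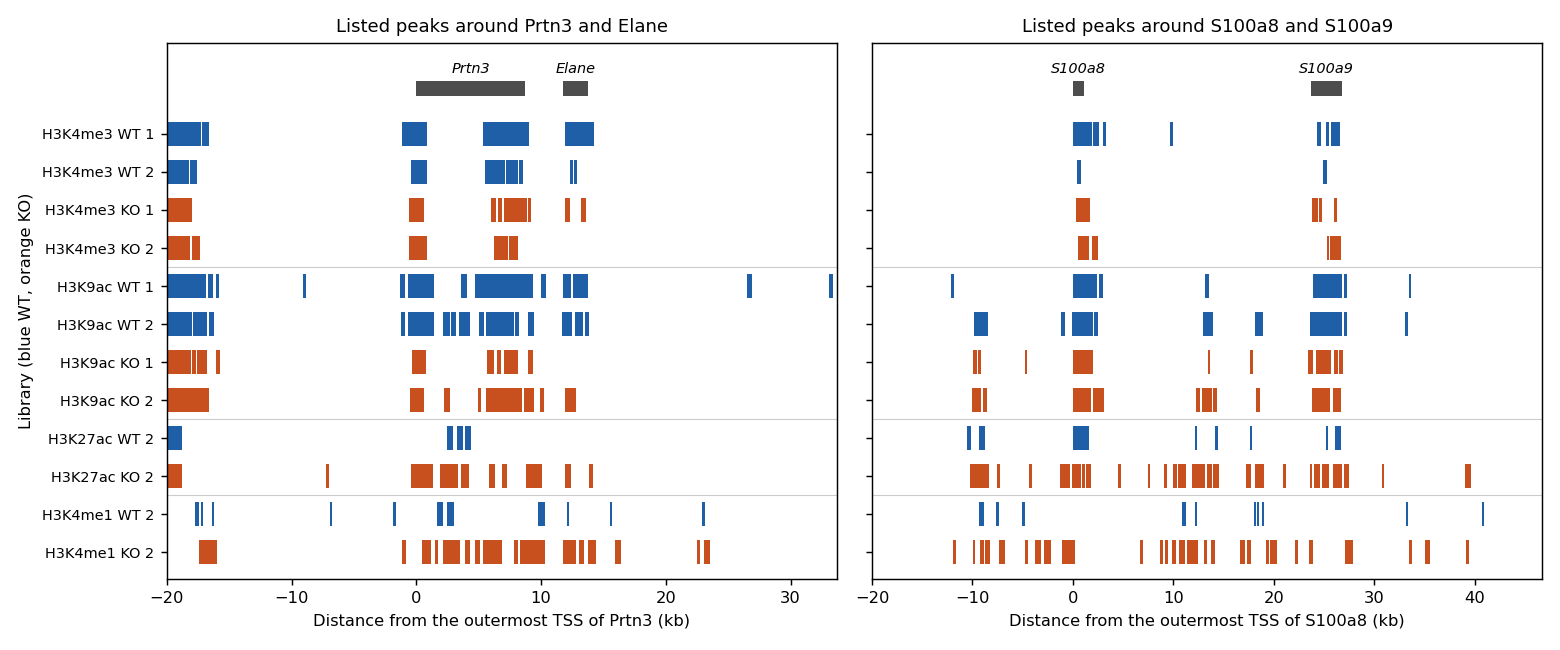
Listed peaks (bars) of the 12 libraries compared (rows, WT in blue and KO in orange) by distance in kb from the outermost TSS of *Prtn3* (left) and of *S100a8* (right). Grey bars are the genes. In the left panel both WT rows of H3K9ac cover more around *Prtn3* and *Elane* than the KO rows. For H3K4me3 this holds for WT replicate 1, and WT replicate 2 is close to KO replicate 1. In the right panel the KO rows of H3K27ac and H3K4me1 hold more peaks than the WT rows.

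Other genes of the granule program carried the marks in similar numbers. Of 10 further primary granule genes, such as *Ctsc*, which encodes the protease that activates granule serine proteases, 9 had H3K9ac in both WT replicates and 8 in both KO replicates. H3K4me3 was present at 5 and 6 of them. Of 14 further secondary and tertiary granule genes, 12 had H3K9ac in WT and 11 in KO, and 6 had H3K4me3 in each genotype. Of 8 genes of late neutrophils, such as the G-CSF receptor gene *Csf3r*, 5 had H3K9ac in each genotype, and 2 and 1 had H3K4me3. Limma tested 8 of the 10, 11 of the 14 and 4 of the 8 genes for H3K9ac, and called 0 in either direction. Their median log2 differences of KO minus WT in H3K9ac were -0.24, 0.04 and -0.08, beside 0.01 over all genes tested.

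The H3K9ac ranks of the 10 genes were also set beside those of other myeloid genes. The median H3K9ac percentile, averaged over replicates, was 28.4 in WT and 21 in KO for the primary granule genes. For the secondary granule genes it was 10.7 and 21.9, a value set by *Camp* in WT and by *Ngp* in KO. KO replicate 1 did not share this rise. Summed over the secondary granule genes, the percentiles stood at 28.2 and 39.7 (WT) and at 24.1 and 69.6 (KO). The median for calprotectin was 27.9 and 21.3, for *Lyz2* 23.0 and 8.63, and over all protein-coding genes 7.03 and 4.52. The 12 monocyte genes had 25.1 and 17.5, and the 10 progenitor genes 41 and 46.5. For 8 regulators of granulocyte differentiation, such as *Cebpa*, *Cebpe* and *Gfi1*, which encode transcription factors, the values were 62.1 and 55.8. Effector genes thus had weaker promoter H3K9ac than the regulators in both genotypes, as a description without a test.

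Markers of other cell types were sparse, with exceptions. None of 8 erythroid genes had H3K9ac in both WT replicates and 3 did in both KO replicates, beside 2 of 7 B-cell, 2 of 6 T-cell and 2 of 6 stromal and endothelial genes in each genotype. The erythroid globin genes *Hba-a1* and *Hbb-bs* and the T-cell gene *Cd3e* had no promoter peak in any of the 12 libraries. Other markers ranked high: for H3K9ac, the B-cell gene *Vpreb1* lay between the 76.8th and 96.6th percentile in the 4 libraries. The T-cell gene *Cd3d* lay between the 37.2th and 51.3th percentile. Summed over each list, the H3K9ac percentiles of the erythroid genes went from 26.7 and 0 (WT) to 29.9 and 41.1 (KO), and those of the monocyte genes from 316 and 434 (WT) to 289 and 282 (KO). The 4 primary granule genes summed to 119 and 98.4 (WT) and to 70.2 and 92.7 (KO). The sums of the B-cell genes lay between 96.3 and 114 in the 4 libraries. The T-cell genes summed to 79.9 and 66.8 (WT) and to 38.0 and 44.3 (KO), and the stromal and endothelial genes to 14.6 and 14.7 (WT) and to 4.31 and 5.46 (KO). Monocyte, T-cell, stromal and primary granule sums were thus lower in both KO libraries, and the erythroid sum was higher. The further primary granule genes were also lower, 312.5 and 343 (WT) against 204.6 and 302.7 (KO). The T-cell sum came from *Cd3d* and *Lck* alone, and the stromal sum from *Col1a1* and *Pdgfrb* alone. Of single genes with an H3K9ac promoter peak, 18.6% ranked lower in both KO libraries and 11.9% higher. How often sums of gene lists separate in this way was not counted, and the part of cell composition was not tested.

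Genes whose promoter pattern was most like that of each group were found by the mean absolute difference in percentile from the group median over the 12 libraries. For the primary granule genes these were *Milr1*, *Ttc25* and *Fkbpl*, with mean differences between 5.30 and 7.06 percentile points. For the secondary granule genes they were *Cybb*, *Pxt1* and *Rab37* (6.17 to 6.36), for calprotectin *A930002H24Rik*, *Osgin1* and *Fbp1* (7.00 to 7.81), and for *Lyz2* they were *Aoah*, *Dixdc1* and *Pctp* (5.24 to 6.25). *Cybb*, which encodes a subunit of the NADPH oxidase, is itself among the further secondary granule genes above. The members of the primary group differed from their own median by up to 24.6 points, so these genes are closer to that median than some members are.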

How the data were processed

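The 10 genes and all gene lists were chosen with earlier results of these data known. Groups were taken from the sample titles. The authors used BWA for alignment (mm10 build) and MACS2 for peaks of each library, per the submitters' processing notes (versions not given in the sources used here). The deposited lists give, per peak, the position, a score, the fold enrichment at the summit (a ratio over background), p-values and q-values as −log10, and the summit offset. The score was not used, and the summit offset gave the distances to the TSS. The methods give a q-value threshold of 0.05, but the lists reach down to a −log10 p between 2 and 2.07, so some peaks have larger q-values. Numbers of peaks differ between libraries, and depth is unknown. The 16 input libraries were not analysed here. The study dropped 1 replicate each of H3K27ac and H3K4me1 without naming it, and replicate 2 was used here because of the narrow, weak peaks of replicate 1.

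Peaks overlapped a promoter by at least 1 bp. The strongest peak of each promoter was taken by fold enrichment, and limma 3.58.1 (R 4.3.3, eBayes with trend) compared log2 values. Two-sided p-values were adjusted by Benjamini-Hochberg. A gene had called windows or ranks when the 4 values did not overlap between genotypes or, with 1 library per genotype, when they differed by more than 2-fold. Named genes were the 10 genes, genes with a promoter in their windows, and the 3 most similar genes for each group. Genes of the other lists named as examples or as markers, with or without a peak, fall outside this rule and were chosen after their values were seen. Python 3.11.15, numpy 2.4.6, pandas 2.3.3 and matplotlib 3.10.9 were used. The interval code was checked against bedtools 2.31.1 on simulated data, and the limma step was tested on simulated data with the same spread for all genes. Of 200 genes changed by 2 on the log2 scale, it recovered 96% for H3K9ac and 69.5% for H3K4me3. The alternatives were other promoter definitions, q-value thresholds, equal numbers of peaks, flanks of 10 and 50 kb or none, other scaling, a replicate block, and leaving out each library.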

Additional observations from a re-analysis of the deposited data

How the results depend on the processing

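Limma called 0 genes for H3K9ac and H3K4me3 under every alternative run. The replicate numbers shared by the genotypes are not stated to mark a common animal or day, and the correlation of the replicate differences over genes was 0.133 for H3K9ac and -0.0017 for H3K4me3. With a replicate block, 0 genes were called for either mark, and 547 and 580 had an unadjusted p under 0.05, against 383 and 530 without the block. Of the members' log2 differences, 12 of 140 changed sign, none of them called. For H3K9ac these were *Prtn3* with protein-coding TSS (0.10), *Ngp* without centring (-0.066) and with −log10 p (-0.20), and *S100a9* with 2 kb on either side (0.062). For H3K4me3 it was *Prtn3* with −log10 p (-0.023). Leaving out 1 library gave ranges of 0.074 to 1.48 (*Camp*), -0.25 to 0.29 (*Ngp*), -0.86 to 0.35 (*S100a8*) and -0.48 to 0.31 (*S100a9*) for H3K9ac, and of -0.15 to 0.51 (*S100a8*) and -0.44 to 0.081 (*Lyz2*) for H3K4me3.

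Members with H3K4me3 in WT, 4, became 8 with 2 kb on either side and 9 with a peak in either replicate, and 4 to 9 when a replicate was left out. Those in KO, 6, became 3 with either q-value threshold, with equal numbers of peaks and with the summit in the promoter. With both replicates for every mark, H3K27ac fell from 8 to 1 in WT and from 10 to 0 in KO, and H3K4me1 from 6 to 0 in WT and from 9 to 2 in KO. H3K4me1 in WT was also at 0 with q-values of at most 0.05 or 0.01. Without centring, 1398 genes were over 2-fold higher and 36 lower for H3K27ac, instead of 241 and 319, and 45 instead of 25 were higher for H3K4me1. In replicate 1, 0 of 31 genes for H3K27ac and 0 of 34 for H3K4me1 were called in either direction.

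The 4 members with lower H3K9ac ranks became 2 with fold enrichment as deposited and 3 with protein-coding TSS. The rank alternatives, the window counts, protein-coding TSS and leaving out libraries from counts and covered lengths were chosen after seeing the data. The 1 member of H3K4me3 became 0 with the outermost TSS, protein-coding TSS, either q-value threshold and equal numbers of peaks, and 2 with 2 kb on either side, the summit in the promoter and −log10 p. In the other direction, 0 became 1 with 2 kb on either side, equal numbers of peaks and fold enrichment as deposited. The 2 windows with less H3K4me3 became 1 with q-values of at most 0.05. The covered ratio of KO to WT became 1.51 for H3K4me3 without WT replicate 1, at the top of a range from 0.596 over the 4 libraries left out, and for H3K4me1 9.32 and 28.0 at q-values of at most 0.05 and 0.01. The cause of these changes was not tested. Depth is unknown, so no peak does not show that a mark is absent.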

Other observations

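Of 10 progenitor genes, which include *Hoxa9* and *Meis1*, the homeobox genes maintained by *MLL-AF9*, 9 had H3K4me3 in both WT replicates and 10 in both KO replicates. For H3K9ac the counts were 9 and 9. The median H3K4me3 percentile, averaged over replicates, was 31.6 in WT and 29.9 in KO. Summed over the list, the H3K9ac percentiles stood at 446 and 438 (WT) and at 497 and 467 (KO), so that both KO libraries lay above both WT libraries. Of single genes with an H3K9ac promoter peak, 11.9% ranked higher in both KO libraries. Single genes went both ways: *Flt3* was at 24.9 and 11.4 in WT and at 42.4 and 35.1 in KO. *Erg* was at 82.7 and 92.5 in WT and at 80.2 and 75.7 in KO. The median log2 difference of KO minus WT in H3K9ac was 0.25 over the 9 genes that could be tested. It was above 0 at 6 of the 9, and limma called 0 of them.

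All 8 regulators of granulocyte differentiation had H3K9ac in both replicates of each genotype and H3K27ac in replicate 2 of each, and 7 had H3K4me3 in both replicates. Their summed H3K9ac percentiles went from 527 and 504 (WT) to 442 and 456 (KO). The log2 difference of KO minus WT was above 0 at 2 of the 8 genes, with a median of -0.11, and limma called 0 of them.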
